A study of Mus musculus with 20 samples.

Results

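The unfolded protein response (UPR) of the endoplasmic reticulum (ER) was followed through 10 genes: Hspa5, Hsp90b1, Hyou1, Dnajb9, Sdf2l1, Pdia4, Herpud1, Ern1, Atf6 and Xbp1. They were listed by symbol for their known role in the pathway, but with earlier results of these data known. All 10 were found among the 13107 genes of the Myc experiment and among the 11210 genes of the HU experiment. RNA-seq read counts were available for 20 libraries of p19/Nras cells, a mouse line from a liver tumor that Nras expression induced in a p19/Arf-null animal, so that every group shared both alterations. The 10 groups held 2 libraries each. In the Myc experiment, untreated cells carried a control guide (sgCtrl, called WT) or a Trim33 guide (sgTrim33, the lines KO1 and KO2), each with the empty vector pWZL (Ctrl) or with Myc. In the HU experiment, sgCtrl cells (WT) and sgTrim33 cells (KO) received vehicle or 1 mM hydroxyurea (HU), an inhibitor of ribonucleotide reductase that stalls DNA replication, for 4 h. The labels do not say which Trim33 guide line the HU experiment used, and do not say that the 2 libraries of a group came from separate cultures, so p-values measured only the spread between these libraries, which may be technical.

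Proteins that are secreted or sit in membranes fold in the ER with the help of chaperones and oxidoreductases. When unfolded proteins build up, the ER membrane sensors Ire1, Atf6 and Perk signal to the nucleus and raise the transcription of chaperones, folding enzymes and the machinery that removes misfolded proteins (ER-associated degradation, ERAD). Hepatocytes and liver tumor cells carry a large secretory load, and the response is well known in liver.

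Ern1 (Entrez gene 78943, mm9 chr11:106255964-106349166, minus strand) encodes Ire1, the sensor whose RNase activity starts the splicing of Xbp1 mRNA. Xbp1 (22433, chr11:5420662-5425896, plus strand) encodes the transcription factor made from that spliced mRNA, and gene counts do not separate the spliced from the unspliced form. Atf6 (226641, chr1:172634588-172797902, minus strand) encodes a sensor that is cut in the Golgi to release a transcription factor.

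Hspa5 (14828, chr2:34627490-34632051, plus strand) encodes BiP, the Hsp70 chaperone of the ER that also binds the sensors. Hsp90b1 (22027, chr10:86152954-86168254, minus strand) encodes Grp94, the Hsp90 of the ER, and its exons overlap those of 1810014B01Rik on the opposite strand and of AC152453.1 and Gm15344 on the same strand, so its counts could hold reads of these. Hyou1 (12282, chr9:44187573-44200452, plus strand) encodes Grp170, a large relative of Hsp70 that exchanges the nucleotide of BiP. Dnajb9 (27362, chr12:45306884-45311055, minus strand) encodes ERdj4, a J-domain partner of BiP.

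Sdf2l1 (64136, chr16:17130231-17132476, minus strand) encodes a small ER protein found in chaperone complexes. Pdia4 (12304, chr6:47746141-47763511, minus strand) encodes the disulfide isomerase Erp72 and holds the microRNA gene Mir704 in an exon. Herpud1 (64209, chr8:96910338-96919277, plus strand) encodes Herp, a membrane component of the ERAD complex.

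The libraries held 14753177 to 17949430 counts each in the Myc experiment, and 2315327 to 3082202 in the HU experiment. Levels are given as CPM, counts scaled to a common library total after TMM normalization. The targeted gene checks the labels: Trim33 mRNA was at 245.6 and 258.1 CPM in WT Ctrl, at 123.4 and 130.4 in KO1 Ctrl and at 200.9 and 206.8 in KO2 Ctrl, but at 185.4 and 192.5 in the libraries labelled KO1 Myc against 130.7 and 154.7 in those labelled WT Myc (log2 difference 0.40, adjusted p = 0.000243), and at 124.1 and 124.7 in those labelled KO2 Myc. On Trim33 the libraries labelled KO2 Myc were thus nearer to KO1 Ctrl, and those labelled KO1 Myc nearer to KO2 Ctrl. The same held for 3 mesenchymal markers, singled out after their values were seen. Col3a1 was at 317.9 to 370.2 CPM in KO1 Ctrl and 341.1 to 354.4 in those labelled KO2 Myc, against 38.6 to 44.6 in KO2 Ctrl and 35.2 to 40.6 in those labelled KO1 Myc. In the same order of groups Pdgfrb was at 167.6 to 191.2, 199.1 to 204.4, 98.1 to 106.1 and 52.9 to 55.7 CPM, and Col1a1 at 85.0 to 87.7, 81.8 to 84.5, 22.2 to 24.7 and 11.6 to 12.4. No library was moved to another group. The mRNA of a guide-targeted gene need not fall, so this does not show that a label is wrong, but the comparisons of Myc with Ctrl within KO1 and within KO2, and every other direction that rests on the libraries labelled Myc, rest on labels that these values go against. In the HU experiment the same check gave lower Trim33 in all KO libraries. Myc mRNA was at 432.8 and 439.0 CPM in WT Ctrl and at 455.9 and 457.6 in the libraries labelled WT Myc (log2 difference 0.067 ± 0.055, adjusted p = 0.31), so the vector's effect on Myc mRNA was not detectable in WT, while its log2 difference was 1.73 ± 0.057 in KO1 and 1.16 ± 0.056 in KO2, from 186.4 and 196.4 CPM in KO1 Ctrl and from 210.3 and 218.5 in KO2 Ctrl. Of 22 hepatocyte markers only Hpx was listed in the Myc table, at no more than 0.752 CPM, and only Apob in the HU table, at no more than 6.0 CPM, so defining hepatocyte markers were at or near 0 in cells labelled HCC. Of 10 fetal liver and cholangiocyte markers 6 were listed, with a summed level of 3105 to 6759 CPM and 2554 to 3463 CPM, 7 and 4 of 9 mesenchymal markers summed to 2910 to 4245 and 2667 to 3444 CPM (most of it Vim, at 2731 to 3531 and 2602 to 3433), Cd68 of 8 immune markers reached at most 6.3 CPM, and 0 of 6 endothelial markers were listed. Among the fetal liver and cholangiocyte markers in WT vehicle, Krt8 and Krt18 averaged 1073 and 1095 CPM. Krt19 averaged 153 CPM there and Afp 15.3. Group means of Afp in the Myc experiment ran from 0.259 CPM in the libraries labelled KO2 Myc to 31.6 in WT Ctrl.

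Sequence upstream of the gene start was listed by RefSeq (GRCm38.p6) for 8 of the 10 genes, not for Atf6 and Hyou1. Motifs known from UPR promoters were searched on both strands of the whole listed window, which runs from 250 bases before each start into the first bases of the transcript. These were the ER stress element (CCAAT and CCACG separated by 9 bases), a second ER stress element (ATTGG and CCACG separated by 1 base), and the core of the unfolded protein response element (TGACG followed directly by TGG). Only exact matches of these letters were searched for, so near matches in any window were not counted. The 250 bases before the start are printed for the 3 genes with a match, 5′ to 3′ as their gene reads, with the matches in capitals, because they hold the sequence that Atf6 and Xbp1 are known to bind.
Hspa5 (chr2:34771840-34772089, plus strand): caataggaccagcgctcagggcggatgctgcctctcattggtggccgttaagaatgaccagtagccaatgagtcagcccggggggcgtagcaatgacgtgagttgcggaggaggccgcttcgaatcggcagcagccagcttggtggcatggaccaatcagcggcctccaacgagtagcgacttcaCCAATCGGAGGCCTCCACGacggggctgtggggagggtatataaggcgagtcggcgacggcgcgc
Hsp90b1 (chr10:86705445-86705694, minus strand): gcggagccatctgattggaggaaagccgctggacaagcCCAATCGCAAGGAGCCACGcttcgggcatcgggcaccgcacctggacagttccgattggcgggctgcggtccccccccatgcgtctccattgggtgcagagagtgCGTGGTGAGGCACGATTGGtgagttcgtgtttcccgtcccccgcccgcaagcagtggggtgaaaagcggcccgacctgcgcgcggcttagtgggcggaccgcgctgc
Herpud1 (chr8:94386179-94386428, plus strand): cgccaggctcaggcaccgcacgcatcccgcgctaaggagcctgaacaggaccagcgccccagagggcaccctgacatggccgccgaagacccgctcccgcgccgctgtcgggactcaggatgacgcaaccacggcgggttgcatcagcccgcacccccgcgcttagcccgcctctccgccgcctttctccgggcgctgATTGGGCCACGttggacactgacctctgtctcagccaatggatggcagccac

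Hspa5 held 1 exact match to the ER stress element, at -65 to -47 from the start. Hsp90b1 held 2, at -212 to -194 and, reading on the other strand, at -107 to -89. Herpud1 held 1 second ER stress element, at -52 to -42. No match overlapped another, and the core of the unfolded protein response element was in none of the 8 windows. Among all 32851 listed promoters the ER stress element was in 0.119%, the second element in 0.0365% and the core in 0.676%. A match describes letters only, and as shown next the 3 genes did not move alike.

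Per kilobase of exon in WT Ctrl, Hspa5 was highest at 817 ± 12.4 CPM per kb (SD, n = 2 here and below), followed by Hsp90b1 at 391 ± 8.86. Atf6 (79.9 ± 7.12), Pdia4 (62.8 ± 1.66) and Hyou1 (56.6 ± 2.08) came next, and Xbp1 (50.6 ± 0.347) and Herpud1 (50.3 ± 2.33) followed with ranges that overlapped. Dnajb9 (27.1 ± 1.50), Ern1 (17.9 ± 0.832) and Sdf2l1 (6.17 ± 0.610 CPM per kb) were lowest, in that order. In WT vehicle the order opened with Hsp90b1 at 209 ± 2.14 and Hspa5 at 149 ± 15.4 CPM per kb, then Pdia4 at 32.8 ± 0.514 and Hyou1 at 20.2 ± 1.07. Atf6 stood at 15.8 ± 1.46 CPM per kb there. Sdf2l1 (9.63 ± 2.69), Herpud1 (9.12 ± 0.599), Xbp1 (8.90 ± 0.472) and Dnajb9 (8.04 ± 0.322) could not be fully ordered. The range of Sdf2l1 overlapped those of the other 3, and the ranges of Herpud1 and Xbp1 overlapped each other. Ern1 was last at 2.98 ± 0.240.

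The first question was how the genes differed between the Trim33-KO lines and WT in cells with the control vector. Guide and line go together in these groups, so loss of Trim33 and other differences between lines cannot be told apart. All 10 genes passed the test in both Trim33-KO lines against WT Ctrl (edgeR quasi-likelihood test, Benjamini-Hochberg adjusted p under 0.01), in a comparison where 52.2% of all genes passed for KO1 (25.5% higher and 26.7% lower) and 49.9% for KO2 (23.3% higher and 26.6% lower). In KO1 Ctrl 3 rose (Sdf2l1, Hsp90b1, Pdia4) and 7 fell, and in KO2 Ctrl 1 rose (Sdf2l1) and 9 fell. The median log2 fold change of the 10 genes was -0.89 in KO1 and -1.20 in KO2, beside -0.0036 and -0.011 over all genes. Both comparisons share the WT Ctrl libraries, so their values are set side by side and are not independent. With 2 libraries a group, KO1 and WT Ctrl did not overlap for 83.9% of all genes, and KO2 and WT Ctrl for 82.1%. KO2 and KO1 Ctrl did not overlap for 69.9%. The steepest falls were in the sensors Ern1 and Atf6 and in Herpud1. Mesenchymal markers also differed between these groups, with Col3a1 at 5.5 to 6.2 CPM and Pdgfrb at 16.3 to 16.9 in WT Ctrl against the higher KO levels given above, and their part in the results was not tested. In these bulk samples less RNA per cell and fewer cells that express a gene cannot be told apart.

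Ern1 was at 141.9 and 151.5 CPM in WT Ctrl, at 38.4 and 39.4 in KO1 Ctrl and at 33.4 and 39.5 in KO2 Ctrl. Both KO lines lay far below WT Ctrl and overlapped each other. Ern1 fell by 1.92 ± 0.10 (log2, SE) in KO1 (adjusted p = 9.33e-11) and fell by 2.01 ± 0.10 in KO2 (8.6e-11). Atf6 was at 558.4 and 633.5 CPM in WT Ctrl, at 193.2 and 197.2 in KO1 Ctrl and at 129.1 and 136.9 in KO2 Ctrl. The 3 groups of this sensor did not overlap. Atf6 fell by 1.61 ± 0.073 in KO1 (1.92e-11) and fell by 2.16 ± 0.075 in KO2 (2.09e-12). Xbp1, the transcription factor downstream of Ire1, was at 165.1 and 163.4 CPM in WT Ctrl, at 98.5 and 95.2 in KO1 Ctrl and at 78.8 and 77.2 in KO2 Ctrl. Its groups were likewise separate. Xbp1 fell by 0.76 ± 0.079 in KO1 (3.53e-07) and fell by 1.07 ± 0.080 in KO2 (9.14e-09).

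Hspa5 was at 2901 and 2840 CPM in WT Ctrl, at 1451 and 1400 in KO1 Ctrl and at 1079 and 1093 in KO2 Ctrl. WT Ctrl was highest and the groups did not overlap. BiP mRNA was thus at 0.497 of the WT level in KO1 (log2 change -1.01 ± 0.074, adjusted p = 5.92e-09) and 0.378 in KO2 (-1.40 ± 0.075, 1.76e-10). Dnajb9, its J-domain partner, was at 48.6 and 52.6 CPM in WT Ctrl, at 26.1 and 21.9 in KO1 Ctrl and at 19.7 and 20.6 in KO2 Ctrl. Again WT Ctrl stood above both lines. Dnajb9 fell by 1.08 ± 0.085 in KO1 (1.51e-08) and fell by 1.33 ± 0.087 in KO2 (2.11e-09). Hyou1 was at 398.9 and 420.2 CPM in WT Ctrl, at 369.1 and 338.3 in KO1 Ctrl and at 259.2 and 253.4 in KO2 Ctrl. The groups of this chaperone were separate, in the order WT, KO1, KO2. Hyou1 fell by 0.21 ± 0.056 in KO1 (0.00361) and fell by 0.68 ± 0.057 in KO2 (3.66e-08).

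Hsp90b1 was at 1552 and 1603 CPM in WT Ctrl, at 2072 and 2010 in KO1 Ctrl and at 1174 and 1189 in KO2 Ctrl. KO1 lay above and KO2 below WT Ctrl, with no overlap. Grp94 mRNA was 0.37 ± 0.048 (log2) higher in KO1 (adjusted p = 4.85e-06) and fell by 0.42 ± 0.048 in KO2 (1.59e-06). Pdia4 was at 158.6 and 152.7 CPM in WT Ctrl, at 199.7 and 190.7 in KO1 Ctrl and at 132.9 and 137.1 in KO2 Ctrl. Its order of groups was the one seen for Hsp90b1. Pdia4 was 0.33 ± 0.056 higher in KO1 (8.35e-05) and fell by 0.21 ± 0.056 in KO2 (0.00483).

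Sdf2l1 was at 6.4 and 7.3 CPM in WT Ctrl, at 37.8 and 31.4 in KO1 Ctrl and at 18.5 and 16.7 in KO2 Ctrl. Unlike the other 9 genes, it was higher in both KO lines than in WT Ctrl. Sdf2l1 rose 5.05-fold in KO1 (log2 2.34 ± 0.12, adjusted p = 9.17e-11) and 2.57-fold in KO2 (1.36 ± 0.13, 2.16e-07). Herpud1 was at 121.2 and 113.5 CPM in WT Ctrl, at 32.5 and 32.7 in KO1 Ctrl and at 29.8 and 32.5 in KO2 Ctrl. Both KO lines lay below WT Ctrl and overlapped each other. This ERAD component fell by 1.85 ± 0.086 in KO1 (2.36e-11) and fell by 1.91 ± 0.086 in KO2 (2.71e-11).

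With 1 library left out, 2 of these small changes were no longer called: Hyou1 in KO1 without WT Ctrl replicate 2 (-0.17, adjusted p = 0.048) or KO1 Ctrl replicate 2 (-0.15, 0.078), and Pdia4 in KO2 without any of the 4 libraries (-0.23 to -0.18, 0.013 to 0.048). Fitted without the 6 libraries labelled Myc, the counts were the same, 3 higher and 7 lower in KO1 and 1 higher and 9 lower in KO2. With 2 libraries against 2, an exact permutation test of a single gene cannot go below a two-sided p of 0.333.

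**Figure D1:**
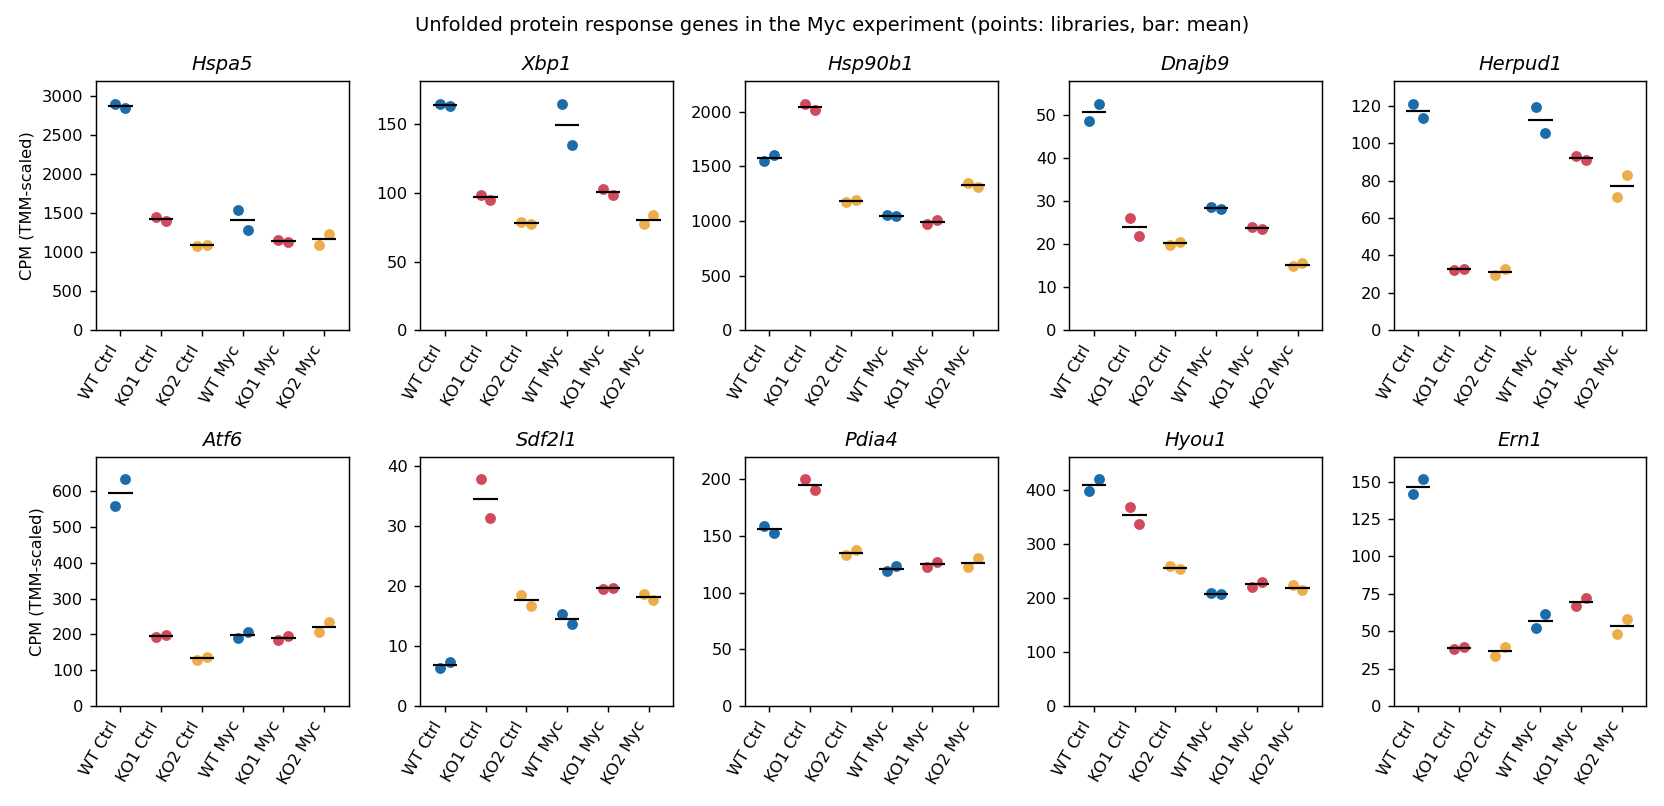
CPM of the 10 genes in each library of the Myc experiment, with 1 panel per gene, a y axis from 0 and a bar at each group mean; blue is WT, red KO1 and yellow KO2. WT Ctrl stands highest for Ern1, Atf6, Hspa5, Dnajb9 and Hyou1 and lowest for Sdf2l1. The libraries of the remaining groups lie at 129.1 to 234.8 CPM for Atf6 and at 1079 to 1542 CPM for Hspa5.

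The KO lines were next compared with each other. KO2 Ctrl was lower than KO1 Ctrl for 7 of the 10 genes and higher for 0, where 18.3% of all genes passed (8.33% higher and 9.96% lower). All 10 log2 differences were negative, from -0.97 ± 0.10 for Sdf2l1 (adjusted p = 2.21e-06) and -0.79 ± 0.049 for Hsp90b1 (3.78e-09) to -0.07 ± 0.094 for Herpud1 (0.651). Atf6 (-0.55 ± 0.075), Pdia4 (-0.53 ± 0.056), Hyou1 (-0.46 ± 0.057), Hspa5 (-0.39 ± 0.074) and Xbp1 (-0.31 ± 0.081) also passed, while Dnajb9 (-0.25 ± 0.094, adjusted p = 0.054) and Ern1 (-0.09 ± 0.11, 0.569) did not. The call for Xbp1 was lost without any 1 of the 4 libraries (adjusted p = 0.033 to 0.071) and that for Hspa5 without KO1 Ctrl replicate 1 (0.013) or KO2 Ctrl replicate 1 (0.013).

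The other genes of the pathway were read from 5 lists of 94 genes, of which 93 were measured here. In KO1 Ctrl against WT Ctrl 14 rose and 41 fell, and in KO2 Ctrl 4 rose and 60 fell. These were 59.1% and 68.8% of the 93 genes, beside 52.2% and 49.9% of all genes. The list that differed most in level was the Perk branch with the integrated stress response, in which all 14 genes fell in both lines, with a median log2 change of -2.47 in KO1 and -2.36 in KO2. It includes Trib3, a pseudokinase induced through Atf4 and Chop, which was at 265.1 and 266.9 CPM in WT Ctrl against 14.5 and 13.3 in KO1 Ctrl and at 13.1 and 11.9 in KO2 Ctrl (log2 changes -4.26 and -4.41), and Ppp1r15a, the Gadd34 subunit that restores translation (-4.14 and -4.21). ER chaperones and foldases were mixed, with 12 higher and 2 lower of 24 in KO1 (58.3% called) and 3 higher and 10 lower in KO2 (54.2%). Among them Ero1b, an ER oxidase, was 1.44 higher in KO1 (from a WT mean of 3.9 CPM), and Erp29 was 0.66 higher in KO2. The list's steepest fall was that of Ero1a, the more abundant ER oxidase, with log2 changes of -3.29 (KO1) and -3.03 (KO2). Against a WT mean of 530.7 CPM, Ero1a averaged 54.2 CPM for the KO1 line and 65.1 CPM for KO2, all with the control vector.

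Of the 21 ERAD genes measured, 9 fell in KO1 (42.9%) and 14 in KO2 (66.7%), with 0 higher in either. Of the translocation and N-glycosylation list 11 and 17 of 22 fell (50% and 77.3%) with 0 higher. Over all genes 52.2% were called in KO1 (26.7% as lower) and 49.9% in KO2 (26.6% as lower). The shares of these 2 lists called in KO1 were thus not above the 52.2% of all genes called in either direction. All their calls were lower, and those shares were above the 26.7% of all genes called as lower. The lists were not tested as sets. Among the 12 sensors and their regulators 2 rose and 5 fell in KO1 (58.3% called), and 1 rose and 5 fell in KO2 (50%). The rise in both was in Creb3l1, a membrane-bound transcription factor related to Atf6, at 1.6 and 1.2 CPM in WT Ctrl, at 15.3 and 13.0 in KO1 Ctrl and at 17.1 and 16.5 in KO2 Ctrl (log2 3.34 and 3.59). Between KO lines 5 of the 93 genes were higher and 29 lower in KO2, with Ero1b (-1.26) and Os9 (-0.65), an ERAD lectin, at the low end and Wfs1 (1.05) and Nupr1 (0.90) at the high end. These calls were 36.6% of the 93, beside 18.3% of all genes.

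**Figure D2:**
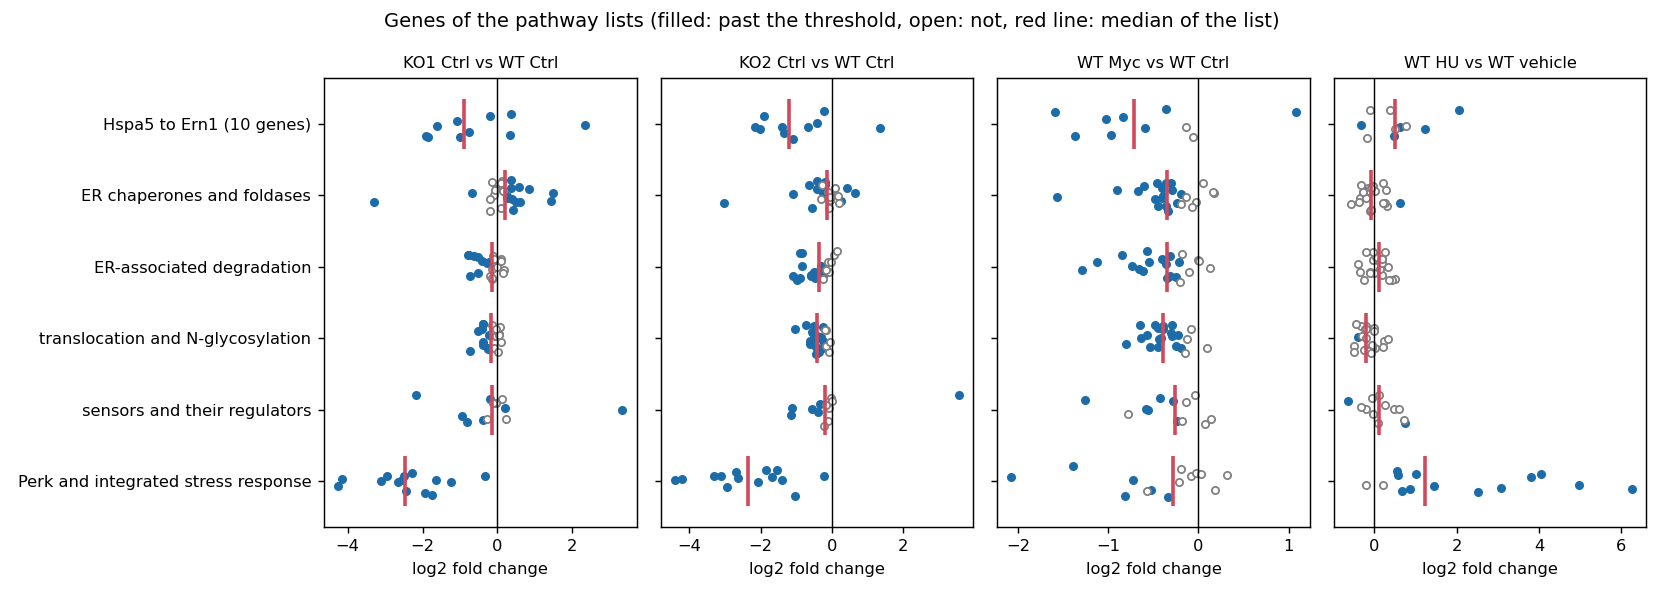
Each point is 1 gene's log2 fold change (x axis) in 4 comparisons, for the 10 genes and the 5 other lists of the pathway; filled points passed the threshold and the red line is the list's median. The Perk and integrated stress response list lies to the left in both KO panels (medians -2.47 and -2.36) and to the right after HU (1.23).

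In the HU experiment the KO and WT cells were compared again, without and with HU. Without HU, 0 of the 10 genes passed (adjusted p under 0.01), where 5.58% of all genes did (3.07% higher and 2.52% lower). By DESeq2 the count was also 0, and 3 genes had an unadjusted p under 0.05 by edgeR. Hspa5 was at 484.5 and 560.9 CPM in WT vehicle and 670.0 and 599.1 in KO vehicle, and the groups did not overlap (log2 0.28 ± 0.10, adjusted p = 0.0592). Atf6 was at 125.9 and 110.5 in WT vehicle and 170.8 and 133.0 in KO vehicle, also without overlap (0.36 ± 0.14, 0.0797). In this comparison the groups did not overlap for 50.1% of all genes and for 5 of the 10. Ern1 was at 25.7 and 22.9 CPM in WT vehicle and 30.9 and 33.4 in KO vehicle (0.41 ± 0.23, 0.27). These 3 genes were numerically higher in KO here, and fell in both KO lines of the Myc experiment, but the tables were normalized separately and the difference between experiments was not tested.

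Dnajb9 was at 14.6 and 15.4 CPM in WT vehicle and 10.6 and 8.0 in KO vehicle, or 24 to 41 reads a library (-0.70 ± 0.34, adjusted p = 0.193). Herpud1 was at 22.3 and 20.3 CPM in WT vehicle and 18.7 and 16.7 in KO vehicle (-0.27 ± 0.25, 0.559). At this depth neither difference could be told from the spread between libraries. The other 5 genes lay between -0.15 ± 0.25 for Xbp1 (0.781) and 0.29 ± 0.40 for Sdf2l1 (0.723), with Hsp90b1 at 0.09 ± 0.098, Pdia4 at 0.09 ± 0.16 and Hyou1 at 0.07 ± 0.13. Set side by side across tables that were normalized separately, and without a test, WT vehicle was below WT Ctrl in CPM for 9 of the 10 genes, Sdf2l1 being the exception, and Hspa5 in WT vehicle was also below each of the KO Ctrl libraries of the Myc experiment.

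Under HU, 2 of the 10 genes differed between KO and WT at an adjusted p under 0.01, where 6.04% of all genes did (3.27% higher and 2.77% lower). Hspa5 was at 1098 and 1077 CPM in KO HU and 810.1 and 803.5 in WT HU, and was higher by 0.43 ± 0.098 (adjusted p = 0.0015). Herpud1 was at 51.6 and 46.2 CPM in KO HU and 91.6 and 84.5 in WT HU, and fell by 0.85 ± 0.19 (0.000905). The groups did not overlap for either gene, nor for 55.4% of all genes. The 2 genes went in opposite directions. The marker Col3a1 was also lower in KO, at 0.707 and 0.79 CPM against 33.9 and 38.2 in WT HU, and its part was not tested. The remaining 8 genes ranged from -0.48 ± 0.39 for Sdf2l1 (0.501) to 0.25 ± 0.16 for Pdia4 (0.331). Without any 1 of the 4 libraries both calls were lost, with log2 values of 0.42 to 0.44 for Hspa5 (adjusted p = 0.025 to 0.059) and -0.93 to -0.77 for Herpud1 (0.012 to 0.042).

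Of 91 other pathway genes 1 was higher and 4 lower in KO vehicle than in WT vehicle, and 2 were higher and 4 lower under HU. These were 5.49% and 6.59% of the 91, near the 5.58% and 6.04% of all genes that passed. Vldlr, a lipoprotein receptor among the targets of Atf4, fell by 0.78 without HU (adjusted p = 0.0068) and fell by 1.12 with HU (1.5e-06), and Sel1l, the adaptor of the Hrd1 ERAD ligase, fell by 0.67 (0.0043) and 0.91 (8.9e-05). Wfs1 was 0.46 higher in both (0.00094 and 0.00082). Sil1, a nucleotide exchange factor of BiP, fell by 1.46 under HU (0.0026) and Rpn1 was 0.55 higher.

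**Figure D3:**
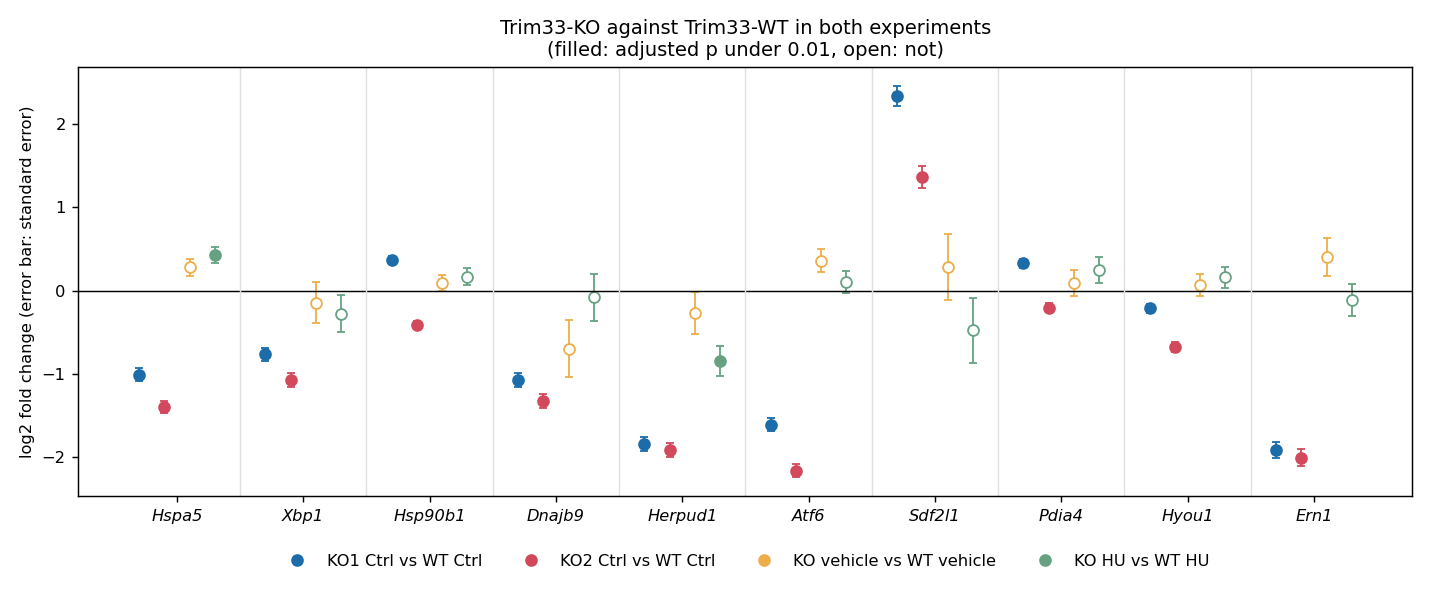
Log2 fold change of each of the 10 genes in 4 comparisons of Trim33-KO with Trim33-WT, with standard errors; filled points had an adjusted p under 0.01. Both Ctrl comparisons (blue, red) share the WT Ctrl libraries and lie below 0 for Hspa5, Xbp1, Dnajb9, Herpud1, Atf6, Hyou1 and Ern1, and of the HU experiment (yellow, green) only Hspa5 and Herpud1 under HU passed.

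The next question was the effect of the Myc vector in each line. As given above, a rise of Myc mRNA itself was not detectable in WT cells. In the libraries labelled WT Myc against WT Ctrl 8 of the 10 genes passed, 1 higher and 7 lower, where 44.3% of all genes passed (21.6% higher and 22.7% lower). In those labelled KO1 Myc against KO1 Ctrl 2 were higher and 5 lower (36.1% of all genes, 17.9% higher and 18.2% lower), and in those labelled KO2 Myc against KO2 Ctrl 4 were higher and 2 lower (38.8%, 20.2% higher and 18.6% lower). The median log2 change of the 10 genes stood at -0.71 in WT, at -0.17 in KO1 and 0.073 in KO2, beside 0.0069, 0.0066 and 0.017 over all genes. Myc and Ctrl groups did not overlap for 75.25%, 76.13% and 77.52% of all genes in WT, KO1 and KO2. Against WT Myc this share was 64.26% for KO1 Myc and 70.33% for KO2 Myc. The largest change in WT was the fall of Atf6, and the largest in each KO line was the rise of Herpud1. As labelled, the markers Col3a1, Pdgfrb and Col1a1 were lower in KO1 Myc than in KO1 Ctrl and higher in KO2 Myc than in KO2 Ctrl. These are the values given above that go against the labels KO1 Myc and KO2 Myc, and their part was not tested. The 2 libraries labelled WT Myc differed by 10.8 times the counting noise, against 2.17 to 4.46 in the other 9 groups, and they enter the WT response and both differences of response between lines.

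Atf6 was at 189.7 and 205.9 CPM in WT Myc, 185.6 and 196.6 in KO1 Myc and 208.0 and 234.8 in KO2 Myc. WT Myc and KO1 Myc overlapped, and KO2 Myc lay just above both. Atf6 fell by 1.59 ± 0.073 in WT (adjusted p = 1.23e-10), had a log2 change of -0.03 ± 0.073 in KO1 (0.759) and rose by 0.74 ± 0.074 in KO2 (6.15e-07). Ern1 was at 51.8 and 61.5 CPM in WT Myc, 67.2 and 71.9 in KO1 Myc and 48.2 and 58.3 in KO2 Myc. WT Myc and KO2 Myc overlapped and KO1 Myc lay above both. Ern1 fell by 1.37 ± 0.096 in WT (9.43e-09) and rose by 0.84 ± 0.10 in KO1 (5.08e-06) and 0.55 ± 0.10 in KO2 (0.000391).

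Xbp1 was at 165.2 and 134.7 CPM in WT Myc, 102.9 and 98.7 in KO1 Myc and 77.1 and 84.0 in KO2 Myc. The WT Myc libraries spread widely and reached the WT Ctrl level. Its log2 changes with Myc were -0.13 ± 0.076 in WT (0.152), 0.06 ± 0.080 in KO1 (0.578) and 0.05 ± 0.081 in KO2 (0.655), and without WT Myc replicate 1 Xbp1 passed in WT (-0.29, adjusted p = 0.0005). Herpud1 was at 119.4 and 105.3 CPM in WT Myc, 93.0 and 91.0 in KO1 Myc and 71.5 and 83.0 in KO2 Myc. WT Myc overlapped WT Ctrl, while both KO Myc groups lay above their Ctrl groups. Herpud1 had a log2 change of -0.06 ± 0.077 in WT (0.504) and rose 2.82-fold in KO1 (1.50 ± 0.086, 1.01e-09) and 2.48-fold in KO2 (1.31 ± 0.087, 4.6e-09).

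Hspa5 was at 1542 and 1284 CPM in WT Myc, 1162 and 1137 in KO1 Myc and 1093 and 1233 in KO2 Myc. WT Myc lay between WT Ctrl and the KO groups with the vector. Hspa5 fell by 1.02 ± 0.074 in WT (1.44e-08) and fell by 0.31 ± 0.073 in KO1 (0.0023), and had a log2 change of 0.10 ± 0.073 in KO2 (0.277). The KO1 call of Hspa5 was lost without any 1 of the 4 libraries (-0.34 to -0.29, adjusted p = 0.012 to 0.028). Dnajb9 was at 28.5 and 28.2 CPM in WT Myc, 24.0 and 23.6 in KO1 Myc and 14.9 and 15.5 in KO2 Myc. These 3 groups did not overlap. Dnajb9 fell by 0.84 ± 0.083 in WT (4.35e-07) and fell by 0.40 ± 0.098 in KO2 (0.00261), with a change of -0.01 ± 0.091 in KO1 (0.927).

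Hsp90b1 was at 1053 and 1041 CPM in WT Myc, 972.7 and 1005 in KO1 Myc and 1346 and 1312 in KO2 Myc. KO2 Myc was highest and KO1 Myc lowest. Hsp90b1 fell by 0.59 ± 0.048 in WT (5.6e-08) and fell by 1.05 ± 0.049 in KO1 (8.14e-11), and was 0.17 ± 0.048 higher in KO2 (0.00785). Hyou1 was at 209.8 and 207.0 CPM in WT Myc, 220.7 and 230.6 in KO1 Myc and 223.7 and 215.0 in KO2 Myc. The Ctrl libraries of each line were all higher. Hyou1 fell by 0.97 ± 0.057 in WT (1.53e-09), by 0.65 ± 0.057 in KO1 (1.22e-07) and fell by 0.23 ± 0.057 in KO2 (0.00356).

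Pdia4 was at 119.0 and 123.2 CPM in WT Myc, 122.7 and 126.9 in KO1 Myc and 122.3 and 130.1 in KO2 Myc, so that the 3 groups overlapped in sequence. Pdia4 fell by 0.36 ± 0.057 in WT (5.21e-05) and fell by 0.64 ± 0.056 in KO1 (1.1e-07), with a change of -0.10 ± 0.056 in KO2 (0.165). Sdf2l1 was at 15.3 and 13.7 CPM in WT Myc, 19.5 and 19.7 in KO1 Myc and 18.6 and 17.6 in KO2 Myc. It was above WT Ctrl and below KO1 Ctrl in all 6 libraries. Sdf2l1 rose by 1.08 ± 0.14 in WT (5.92e-06), fell by 0.82 ± 0.10 in KO1 (5.22e-06) and had a change of 0.04 ± 0.11 in KO2 (0.777).

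In KO2, 2 to 3 genes were called with 1 library left out, against 6 with all. The calls of Hsp90b1 (0.15 to 0.19, adjusted p = 0.023 to 0.06), Dnajb9 (-0.44 to -0.37, 0.012 to 0.027) and Hyou1 (-0.25 to -0.20, 0.01 to 0.041) were lost without any of the 4, and that of Ern1 without KO2 Ctrl replicate 1 (0.43, 0.013) or KO2 Myc replicate 2 (0.40, 0.012).

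**Figure D4:**
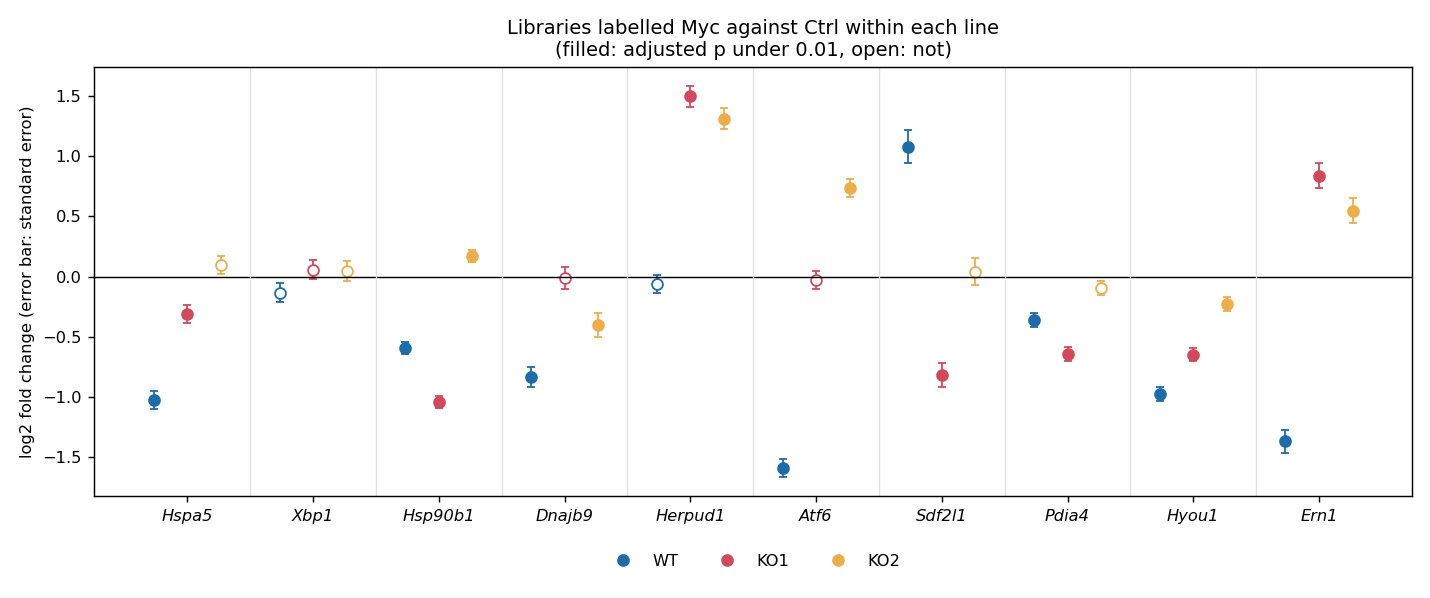
Log2 fold change of the libraries labelled Myc against Ctrl in WT (blue), KO1 (red) and KO2 (yellow), with standard errors; filled points had an adjusted p under 0.01. The WT points lie below 0 for Atf6, Ern1, Hspa5, Hyou1, Dnajb9, Hsp90b1 and Pdia4, where the KO2 points lie between -0.40 (Dnajb9) and 0.74 (Atf6), and Herpud1 is above 0 in KO1 and KO2 only.

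Among the 93 other pathway genes 0 rose and 62 fell in the libraries labelled WT Myc against WT Ctrl, led by Ppp1r15a (-2.07) and the ER oxidase Ero1a (-1.57). In those labelled KO1 Myc against KO1 Ctrl 17 rose and 50 fell, and in those labelled KO2 Myc against KO2 Ctrl 16 rose and 36 fell. These were 66.7%, 72.0% and 55.9% of the 93 in WT, KO1 and KO2, beside 44.3%, 36.1% and 38.8% of all genes. The Perk and integrated stress response list stood apart from the others in direction, with 14 of 14 higher in KO1 (median 1.47) and 11 of 14 higher in KO2 (median 1.21), against 0 higher and 6 lower in WT (median -0.28). Trib3 was at 186.0 and 171.0 CPM in KO1 Myc and 115.4 and 177.8 in KO2 Myc, 3.68 and 3.55 above the respective Ctrl groups on the log2 scale. Chac1, which degrades glutathione, rose by 3.10 in KO1, and Ddit3, which encodes Chop, rose by 2.93 in KO2. At the low end were Dnajc3 (-1.25) and Edem3 (-1.20) in KO1, and Wfs1 (-2.17) and Creb3l1 (-1.02) in KO2.

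The libraries labelled Myc were also compared between lines. Of the 10 genes, Sdf2l1 was higher and Herpud1, Hspa5 and Xbp1 were lower in KO1 Myc than in WT Myc, both as labelled, 4 calls where 25.1% of all genes passed (12.6% higher and 12.5% lower). Xbp1 differed most (-0.57 ± 0.078, adjusted p = 2.96e-05), before Sdf2l1 (0.44 ± 0.11, 0.00528), Hspa5 (-0.30 ± 0.073, 0.00449) and Herpud1 (-0.29 ± 0.077, 0.00774). In those labelled KO2 Myc, Hsp90b1 was higher and 4 genes were lower, where 35.2% of all genes passed (17.2% higher and 18% lower). These were Dnajb9 (-0.90 ± 0.093, 9.3e-07), Xbp1 (-0.89 ± 0.079, 1.31e-07), Herpud1 (-0.54 ± 0.078, 3.11e-05) and Hspa5 (-0.28 ± 0.073, 0.00492), beside Hsp90b1 at 0.34 ± 0.048 (2.45e-05). Atf6 was at -0.05 ± 0.073 in KO1 (0.624) and 0.16 ± 0.073 in KO2 (0.0751), and Ern1 at 0.29 ± 0.098 (0.0275) and -0.09 ± 0.10 (0.472).

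The 3 smaller KO1 calls did not withstand the loss of a library: without WT Myc replicate 1 Hspa5 had -0.16 (adjusted p = 0.046) and Herpud1 -0.19 (0.054), without WT Myc replicate 2 Sdf2l1 had 0.36 (0.027) and Ern1 passed (0.42, 0.0012), and without either KO1 Myc library Hspa5, Herpud1 and Sdf2l1 were all not called (0.019 to 0.057). Hspa5 in KO2 was not called without WT Myc replicate 1 (-0.14, 0.062) or KO2 Myc replicate 1 (-0.20, 0.086). Of the 93 other pathway genes 4 were higher and 23 lower in KO1 and 7 higher and 39 lower in KO2, with Creb3l1 3.18 and 3.35 higher, Mbtps2 0.44 higher in KO1 and Ero1b 0.69 higher in KO2. These were 29.0% and 49.5% of the 93, beside 25.1% and 35.2% of all genes. The largest falls were in Atf3 (-0.90) and Ddit3 (-0.82) in KO1 and in Wfs1 (-2.04) and Nupr1 (-1.02) in KO2.

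Whether the response to the Myc vector differed between lines was tested as the difference of the log2 fold changes. As given above, Myc mRNA itself did not detectably rise in WT but was higher in both KO lines. The part of this unequal change in the differences was not tested. Between KO1 and WT, 6 of the 10 genes had a higher and 3 a lower response in KO1, where 37.3% of all genes differed (19.2% higher and 18.1% lower). Between KO2 and WT 6 were higher and 1 lower, where 32.8% differed (16.6% higher and 16.2% lower). Ern1 differed by 2.21 ± 0.14 in KO1 (adjusted p = 3.79e-09) and 1.92 ± 0.14 in KO2 (2.65e-08), and Atf6 by 1.56 ± 0.10 (5.74e-09) and 2.33 ± 0.10 (1.01e-10). Herpud1 differed by 1.56 ± 0.12 (1.96e-08) and 1.37 ± 0.12 (1.09e-07). Atf6 and Ern1 fell in WT and did not fall in either KO line, and Herpud1 rose in both KO lines but was not called in WT. Hspa5 differed by 0.71 ± 0.10 (3.21e-05) and 1.12 ± 0.10 (3.13e-07), Hyou1 by 0.33 ± 0.080 (0.00299) and 0.75 ± 0.080 (1.61e-06), and Sdf2l1 by -1.90 ± 0.17 (1.58e-07) and -1.04 ± 0.18 (0.000163).

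Dnajb9 differed by 0.82 ± 0.12 in KO1 (3.96e-05) and by 0.43 ± 0.13 in KO2 (0.0117). As labelled, Hsp90b1 had -0.45 ± 0.068 in KO1 (4.46e-05) and 0.76 ± 0.068 in KO2 (2.26e-07), signs that rest on the labels KO1 Myc and KO2 Myc. Pdia4 had -0.28 ± 0.079 in KO1 (0.00745) and 0.26 ± 0.080 in KO2 (0.0128), and Xbp1 had 0.19 ± 0.11 (0.165) and 0.18 ± 0.11 (0.204). These differences share the WT Ctrl and WT Myc libraries, and the level of a KO Ctrl group enters both its KO comparison and its Myc response. Leaving out 1 library ended the calls of Pdia4 in KO1 (without any of 6 of the 8, adjusted p = 0.013 to 0.049) and of Hyou1 in KO1 (without WT Ctrl, KO1 Ctrl or KO1 Myc replicate 2, 0.017 to 0.026), and without WT Myc replicate 1 Xbp1 passed in both (0.34, 0.0013, and 0.33, 0.0021), as Pdia4 did in KO2 without WT Myc replicate 2 (0.29, 0.0047).

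Among the 93 other pathway genes the Myc response was higher for 25 and lower for 12 in KO1 and higher for 37 and lower for 6 in KO2. These were 39.8% and 46.2% of the 93, beside 37.3% and 32.8% of all genes. The Perk and integrated stress response list held 13 and 12 of those higher, with Ppp1r15a at 3.85 and 3.56 and Trib3 at 3.71 and 3.58. At the low end were Ero1b (-1.08) and Erp29 (-0.71) in KO1 and Wfs1 (-0.91) and Erp29 (-0.55) in KO2.

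The HU experiment asked how the cells responded to stalled replication. In WT cells 4 of the 10 genes rose and 1 fell after HU (adjusted p under 0.05), where 9.83% of all genes passed (6.39% higher and 3.44% lower). In KO cells 4 rose and 0 fell, where 6.45% passed (4.65% higher and 1.8% lower). Herpud1, Ern1 and Hspa5 rose in both, but by DESeq2 Ern1 was not called in KO (0.71, adjusted p = 0.0954), nor Atf6 in WT (0.47, 0.0726). The median log2 change of the 10 genes was 0.50 in WT and 0.31 in KO, beside 0 and -0.0098 over all genes. HU and vehicle groups did not overlap for 9 of the 10 in WT and 7 in KO, beside 51.0% and 45.1% of all genes.

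Herpud1 was at 22.3 and 20.3 CPM in WT vehicle and 91.6 and 84.5 in WT HU, and at 18.7 and 16.7 in KO vehicle and 51.6 and 46.2 in KO HU. All HU libraries were above all vehicle libraries. Herpud1 rose 4.14-fold in WT (log2 2.05 ± 0.21, adjusted p = 5.81e-12) and 2.77-fold in KO (1.47 ± 0.22, 9.5e-07). Ern1 was at 25.7 and 22.9 CPM in WT vehicle and 53.5 and 60.6 in WT HU, and at 30.9 and 33.4 in KO vehicle and 59.0 and 46.2 in KO HU. Neither genotype had overlap between HU and vehicle. The Ire1 gene rose by 1.23 ± 0.22 in WT (1.79e-05) and by 0.71 ± 0.21 in KO (0.0229). Hspa5 was at 484.5 and 560.9 CPM in WT vehicle and 810.1 and 803.5 in WT HU, and at 670.0 and 599.1 in KO vehicle and 1098 and 1077 in KO HU. Here too all HU libraries were above all vehicle libraries. BiP mRNA rose 1.54-fold in WT (0.63 ± 0.10, 2.94e-06) and 1.71-fold in KO (0.78 ± 0.099, 1.11e-08).

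Atf6 was at 125.9 and 110.5 CPM in WT vehicle and 176.9 and 153.1 in WT HU, and at 170.8 and 133.0 in KO vehicle and 197.2 and 158.1 in KO HU. HU and vehicle were separate in WT and overlapped in KO. Atf6 rose by 0.48 ± 0.14 in WT (0.0121) and had 0.23 ± 0.13 in KO (0.376). Dnajb9 was at 14.6 and 15.4 CPM in WT vehicle and 28.6 and 22.2 in WT HU, and at 10.6 and 8.0 in KO vehicle and 24.4 and 23.7 in KO HU. This low-count gene was above vehicle in all HU libraries. It rose by 1.38 ± 0.32 in KO (0.00249) and had 0.76 ± 0.30 in WT (0.103). Xbp1 was at 30.0 and 27.8 CPM in WT vehicle and 47.1 and 35.0 in WT HU, and at 30.5 and 22.1 in KO vehicle and 33.9 and 34.0 in KO HU. Its groups did not overlap, yet the change missed the threshold in WT (0.51 ± 0.23, 0.176) and KO (0.38 ± 0.24, 0.441).

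Hsp90b1 was at 848.6 and 836.4 CPM in WT vehicle and 670.1 and 685.1 in WT HU, and at 974.5 and 823.3 in KO vehicle and 754.7 and 767.4 in KO HU. It was below vehicle in all HU libraries. Hsp90b1, with 2 ER stress elements in the stretch shown above, fell by 0.31 ± 0.099 in WT (adjusted p = 0.0283) and had -0.24 ± 0.099 in KO (0.158). Pdia4 (-0.18 ± 0.16 in WT and -0.01 ± 0.15 in KO), Hyou1 (-0.10 ± 0.13 and -0.01 ± 0.13) and Sdf2l1 (0.39 ± 0.39 and -0.38 ± 0.40) did not pass. Sdf2l1 rested on 20 to 54 reads a library, at 8.6 to 18.7 CPM over the 8 libraries, and Pdia4 and Hyou1 ranged from 70.7 to 91.5 and from 132.0 to 161.2 CPM.

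Leaving out 1 library ended the calls of Atf6 in WT (without WT HU replicate 1, 0.37, adjusted p = 0.26, or WT vehicle replicate 2, 0.38, 0.18), of Hsp90b1 in WT (without either WT HU library, 0.26 and 0.19) and of Dnajb9 in KO (without KO vehicle replicate 2, 1.17, 0.073), and those of Ern1 in KO without KO HU replicate 1 (0.52, 0.38) or either KO vehicle library (0.14 and 0.081), while Hsp90b1 passed in KO without KO vehicle replicate 2 (-0.37, 0.029). Of the counts in the HU experiment, 71.9% of those from 1 to 50 were even, against 48.4% in the Myc experiment, and the part of this excess in these values was not tested beyond dividing the counts by 2.

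**Figure D5:**
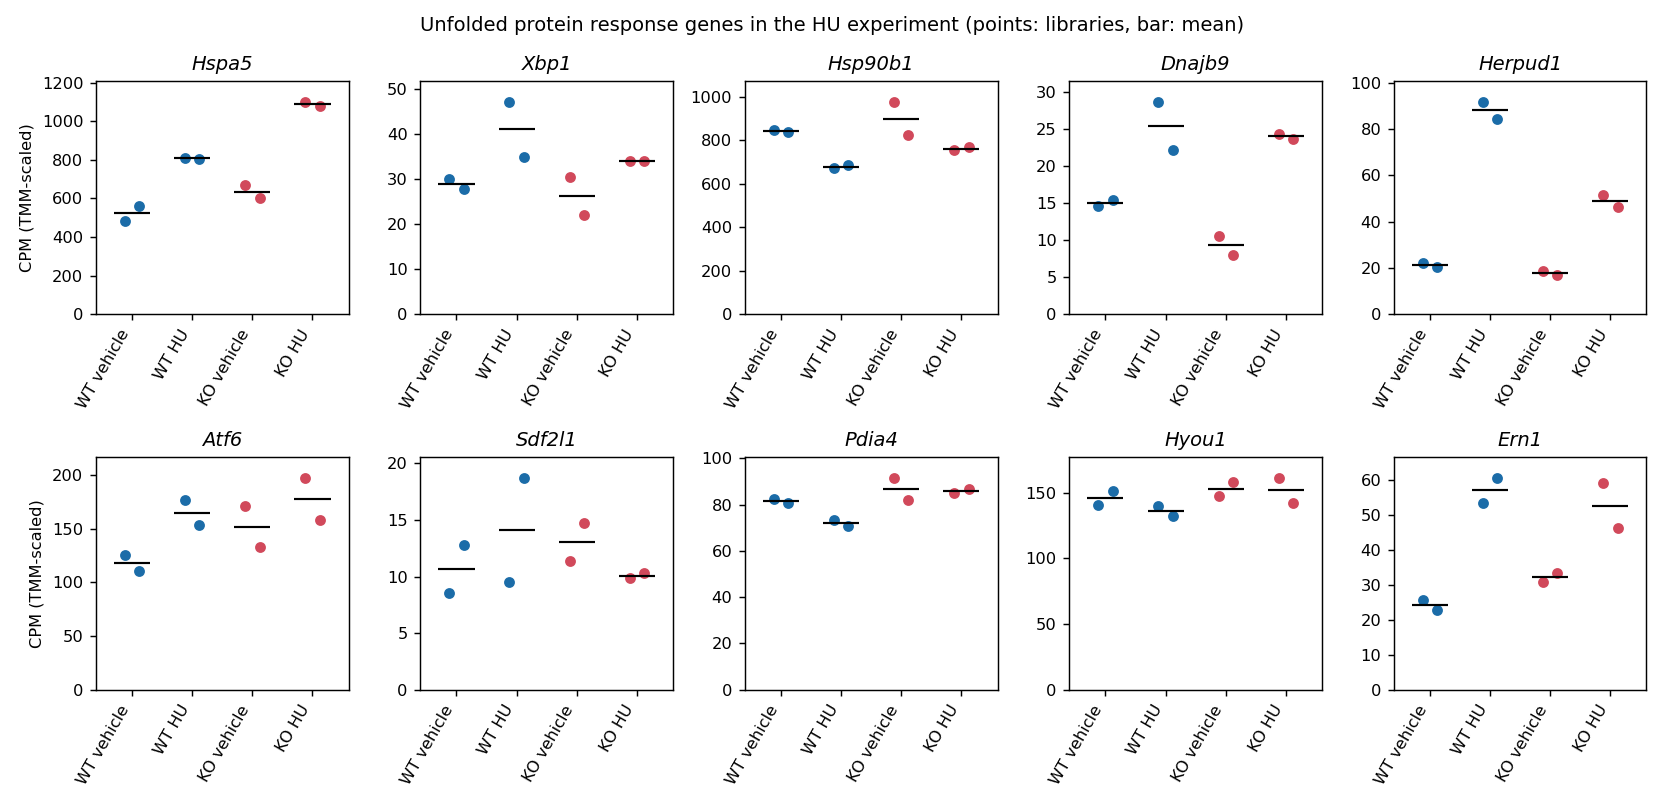
CPM of the 10 genes in each library of the HU experiment, with 1 panel per gene, a y axis from 0 and a bar at each group mean; blue is WT and red KO. Herpud1 rises from at most 22.3 CPM in vehicle to at least 46.2 in HU, Hspa5 and Ern1 are higher in HU in both genotypes, and Hsp90b1 is lower.

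Of the 91 other pathway genes 14 rose and 2 fell after HU in WT, and 14 rose and 1 fell in KO. These were 17.6% and 16.5% of the 91, beside 9.83% and 6.45% of all genes. In both genotypes 12 of those that rose were in the Perk and integrated stress response list of 14 (median log2 change 1.23 in WT and 1.11 in KO), against 1 gene in each of the chaperone and sensor lists. Atf3, a transcription factor of the stress response, was at 0.9 and 3.0 CPM in WT vehicle and 147.6 and 166.2 in WT HU (log2 6.26), and it rose by 6.03 in KO. Chac1 rose by 4.97 in WT and 4.43 in KO. The falls were in Mbtps2 (-0.64), a protease that cuts Atf6, and Ssr1 (-0.39) in WT and in Erp29 (-0.47) in KO.

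The response to HU was not shown to differ between genotypes for any of the 10 genes: 0 passed at an adjusted p under 0.05 by edgeR and 0 by DESeq2, and 0 had an unadjusted p under 0.05, where 0.0714% of all genes passed (0.0446% higher and 0.0268% lower). The differences of KO minus WT ran from -0.76 ± 0.56 for Sdf2l1 (adjusted p = 0.947) and -0.58 ± 0.31 for Herpud1 (0.933) to 0.62 ± 0.45 for Dnajb9 (0.947), with 0.15 ± 0.14 for Hspa5 (0.956), -0.52 ± 0.30 for Ern1 (0.947) and -0.25 ± 0.19 for Atf6 (0.947). Of the 91 other pathway genes 0 differed. The standard errors, up to 0.56, limit the differences that this depth could show.

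The genes whose profiles were nearest were found by the root mean square difference of log2 CPM, centred within each experiment, over all 20 libraries and 10063 genes measured in both tables, which share libraries, depth and groups. Nearest to Hspa5 were Eif1-ps1 (0.18), a gene listed as a copy of Eif1, and Tsc22d1 (0.18), beside a median of 0.51 over all genes. Nearest to Xbp1 was Smim14 (0.088, median 0.44), to Herpud1 Jdp2 (0.22, median 0.88) and to Atf6 Ascc2 (0.25, median 0.59). Pdia4 lay nearest to Selenof (0.087) and to Pdia3 (0.096), another ER disulfide isomerase (median 0.32), and Hyou1 to Atp6ap1 (0.095, median 0.38). Ern1 lay nearest to Zfp110 (0.23), Dnajb9 to Ndel1 (0.24) and Sdf2l1 to Nckap5l (0.32). Among the 10 genes themselves Hsp90b1 and Pdia4 were closest (0.14), followed by Pdia4 and Hyou1 (0.18) and Hsp90b1 and Hyou1 (0.20), then Atf6 and Hspa5 (0.27). Sdf2l1 was the most distant, at 1.21 from Herpud1 and 1.07 from Ern1.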

How the data were processed

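RNA-seq was available for 20 libraries in 10 groups, assigned from the sample labels. Per the labels and methods, the authors aligned reads with STAR 2.5.4 to the mm9 genome and ran edgeR 3.26.8; the counting tool, its annotation and its use of strand are not given in the sources used here. The authors deposited whole-number counts per gene for each experiment. Those of the Myc experiment carry a name that calls them normalized, and they were fitted as read counts. The authors' tables of comparisons (log2 fold changes, F values and p-values) were not used. The 10 genes and the lists were chosen with earlier results of these data known.

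Each table was fitted alone with edgeR 4.0.16 (R 4.3.3, limma 3.58.1): TMM scaling (factors 0.958 to 1.02), filterByExpr (0 genes removed), 1 coefficient per group, the quasi-likelihood test and Benjamini-Hochberg adjustment over all genes, of which 298 and 168 carry no symbol. The threshold was 0.01 for Trim33 and Myc comparisons and 0.05 for HU. Standard errors are the absolute coefficient over the square root of F. The biological coefficient of variation was 0.0498 in the Myc and 0.102 in the HU experiment. Lengths per kb are exon unions of GENCODE vM1 on mm9, and promoters are from RefSeq GRCm38.p6. Besides the 10 genes, those named are, per comparison, the 2 largest rises and the 2 largest falls among called pathway genes with a mean of at least 5 CPM, and the nearest profiles of the 10, of which that of Hsp90b1 is not reported here; further values of a gene so named, and Pdia3, were chosen after their values were seen. Replicates of every group differed beyond counting noise (10.8 times in WT Myc, 2.17 to 4.46 times elsewhere), and same-numbered libraries were not treated as pairs (correlations of their deviations -0.356 to 0.485 in the Myc experiment, 4 of 15 group pairs over 0.1, and -0.024 to 0.0875 in the HU experiment). Scripts were tested on simulated data. Alternatives were DESeq2 1.42.0, RLE scaling, no or a stricter filter, the compared groups alone, a replicate block, the other threshold, HU counts divided by 2, and each library left out.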

Additional observations from a re-analysis of the deposited data

Results flagged for a closer look

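The response to the Myc vector, the log2 change from Ctrl to the libraries labelled Myc, differed between a KO line and WT for these genes by the test of the difference itself. In KO1 against WT the difference was 2.21 for Ern1, 1.56 for Atf6, 1.56 for Herpud1, 0.825 for Dnajb9, 0.71 for Hspa5, 0.33 for Hyou1, -0.28 for Pdia4, -0.45 for Hsp90b1 and -1.90 for Sdf2l1. In KO2 against WT it was 2.33 for Atf6, 1.92 for Ern1, 1.37 for Herpud1, 1.12 for Hspa5, 0.76 for Hsp90b1, 0.75 for Hyou1 and -1.04 for Sdf2l1. These were 9 of the 10 genes in KO1 and 7 in KO2, beside 37.3% and 32.8% of all genes. The KO1 calls of Pdia4 and Hyou1 were lost with some single libraries left out, and that of Pdia4 also by DESeq2. Both sets of differences use the WT Ctrl and WT Myc libraries, and the levels of Trim33, Col3a1, Pdgfrb and Col1a1 mRNA went against the labels KO1 Myc and KO2 Myc. Myc mRNA itself did not detectably rise with the vector in WT but was higher in both KO lines, and its part in the differences was not tested. Groups of 2 are too small to test a library as an outlier.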

How the results depend on the processing

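Among alternatives that left out no library, 964 of 980 single-gene values kept their direction and side of the threshold, and with 1 library left out 620 of 720 did; the cause of the changes was not tested, and a lone library was assumed to vary like the other groups. Counts of the 10 genes that moved by over 1.5 times were 2 by DESeq2 and 1 with the compared groups alone for KO1 Myc against WT Myc (4 as reported), and 3 at the other threshold for WT HU against WT vehicle (5). Those of other pathway genes with the compared groups alone were 55 for KO2 against KO1 Ctrl (34), 8 for KO1 Myc (27) and 21 for KO2 Myc (46) against WT Myc, 1 for KO against WT vehicle (5) and 17 for KO against WT HU (6). Without the 6 libraries labelled Myc, an alternative chosen after seeing the data, KO2 against KO1 Ctrl had 53. DESeq2 gave 3 for KO against WT vehicle, and the other threshold gave 11 there, 15 for KO against WT HU and 9 for WT HU against vehicle (16). Hyou1 in KO HU against vehicle turned to 0.0018 with counts divided by 2.

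At the same threshold and with no library left out, these single calls were lost. By DESeq2 they were Pdia4 in KO2 against WT Ctrl (adjusted p = 0.0133) and in the difference of Myc response between KO1 and WT (0.02), Hsp90b1 in KO2 Myc against KO2 Ctrl (0.014), Herpud1 and Sdf2l1 in KO1 Myc against WT Myc (both 0.0116), Atf6 in WT HU (0.0726) and Ern1 in KO HU (0.0954) against vehicle. With the compared groups alone they were Hspa5 (0.0642), Herpud1 (0.0463) and Sdf2l1 (0.0206) in KO1 Myc and Hspa5 in KO2 Myc (0.0647) against WT Myc, and Pdia4 in the same difference of response (0.0143). RLE scaling lost Hsp90b1 in KO2 Myc against KO2 Ctrl (0.0141), and a mean of at least 5 CPM lost Herpud1 in KO1 Myc against WT Myc (0.0109).

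With 1 library left out, the count of the 10 genes ran from 1 to 4 for KO1 Myc against WT Myc, from 2 to 3 for KO2 Myc against KO2 Ctrl, from 3 to 5 for WT HU against vehicle, and was 0 for KO HU against WT HU. The count of other pathway genes ran from 19 to 25 for KO2 against KO1 Ctrl, from 12 to 41 for KO1 Myc against WT Myc, from 2 to 4 for KO against WT vehicle, from 9 to 18 for WT HU against vehicle and from 1 to 3 for KO HU against WT HU. Log2 values that were not called and changed sign ran, for KO HU against WT HU, from -0.063 to 0.26 (Atf6), -0.25 to 0.12 (Dnajb9), -0.30 to 0.051 (Ern1) and -0.89 to 0.078 (Sdf2l1); for KO against WT vehicle, from -0.047 to 0.21 (Hsp90b1), -0.0042 to 0.17 (Pdia4) and -0.40 to 0.083 (Xbp1); for KO HU against vehicle, from -0.10 to 0.076 (Hyou1) and -0.10 to 0.074 (Pdia4); for WT HU against vehicle, from -0.17 to 0.80 (Sdf2l1); and for the difference in HU response, from -0.039 to 0.22 (Hsp90b1), -0.0011 to 0.18 (Hyou1) and -0.35 to 0.13 (Xbp1). In the Myc experiment they ran from -0.073 to 0.031 (Atf6) and -0.14 to 0.12 (Dnajb9) for KO1 Myc against KO1 Ctrl, -0.11 to 0.016 (Atf6) for KO1 Myc and -0.24 to 0.040 (Ern1) for KO2 Myc against WT Myc, -0.22 to 0.025 (Ern1) for KO2 against KO1 Ctrl, -0.029 to 0.12 (Sdf2l1) and -0.016 to 0.11 (Xbp1) for KO2 Myc against KO2 Ctrl, and -0.16 to 0.026 (Herpud1) and -0.29 to 0.0079 (Xbp1) for WT Myc against WT Ctrl.

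With the replicate number as a block, Ern1 in KO1 Myc against WT Myc passed (0.30, adjusted p = 0.0034), and no other call of the 10 genes changed. The HU libraries hold fewer reads, so differences of genes such as Sdf2l1 and Dnajb9 are resolved poorly.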
